A study of Mus musculus with 8 samples.

Results

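The 49 genes described here are the core genes of DNA replication and deoxynucleotide synthesis. They were taken from a list of symbols, and each was read through the probe set annotated with that symbol alone, taking the brightest over the 8 arrays where a gene had more. All 49 were measured, out of 19938 genes in the series. They fall into 9 role groups, from the MCM helicase to the fork checkpoint.

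The RNA came from the mouse mammary line 3134, which goes back to C127 cells of an RIII tumour. Every group carried a stably integrated transgene for A-fos, a dominant negative form of AP-1 that blocks the hold of Fos and Jun family proteins on DNA. With it came the tetracycline regulator tTA of a Tet-Off switch, which makes A-fos only when tetracycline is absent. Groups of 2 arrays crossed 0 h with 4 h of 100 nM dexamethasone, a synthetic glucocorticoid, in cells titled as without or with tetracycline (1 ug per ml where given), all after 48 h in charcoal-treated serum. The titles and the treatment protocols state opposite tetracycline states for all 8 samples. Each arm is therefore named by its title, no-titled or plus-titled, and the labels leave unsettled which one made A-fos. Neither the promoter behind A-fos nor whether the line is a single clone is given in the sources used here, and nothing says that the 2 replicates were separate cultures, so a p-value here covers the spread among these arrays, which may be technical. All values are log2 signals after RMA normalisation.

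DNA replication starts when the origin recognition complex, CDC6 and CDT1 load the ring-shaped MCM helicase onto DNA in G1. At the start of S phase CDC45, the GINS complex and the DBF4-dependent kinase CDC7 switch the helicase on, and polymerases follow it with the sliding clamp PCNA, while ribonucleotide reductase, thymidylate synthase and thymidine kinase supply deoxynucleotides. Most of these genes are known targets of E2F transcription factors, which the retinoblastoma protein holds back until cyclin-dependent kinases release them, so their mRNAs rise together as cells leave quiescence. In bulk RNA, fewer cells in S phase and less RNA per cell cannot be told apart.

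Because E2F is the factor known for this set, promoter sequence was read where the RefSeq table (GRCm38.p6) held it. It gave 46 windows for 39 of the 49 members, each running from 250 bases before to 50 bases after a transcript start. The words TTTCCCGC, TTTGGCGC, TTTCGCGC and TTTGCCGC, which are forms of the E2F site, were searched on both strands. They can overlap one another where forms on opposite strands share bases. At least 1 of them was found for 17 of the 39 member genes (43.6%), against 704 of 27025 genes in the whole table (2.6%). By windows, the shares were 37.0% of the members' 46 and 2.26% of all 32851. The whole table was neither limited to the genes measured here nor matched to the members in base composition. The AP-1 word TGANTCA was in 0 of the 46 member windows and in 7.81% of all windows, and the word CCAAT was in 54.3% and 37.4%. No other form of an AP-1 site was searched, so the windows are not shown to lack such sites. These are matches of letters and not shown binding sites, and a window without a match says only that the letters are not in it. The 6 stretches below show what such upstream sequence looks like for 2 MCM genes with overlapping matches, for Mcm2, which had none, and for a GINS subunit, a clamp-loader subunit and the ubiquitin ligase adaptor Dtl with 1 each in the bases shown. They are written 5′ to 3′ on the gene's strand, end before the annotated gene, and have E2F-type matches in capitals.
Mcm6: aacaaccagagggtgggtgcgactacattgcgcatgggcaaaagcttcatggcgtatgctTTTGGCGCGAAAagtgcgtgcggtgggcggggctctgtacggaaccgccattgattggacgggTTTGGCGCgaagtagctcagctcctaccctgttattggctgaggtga
Mcm5: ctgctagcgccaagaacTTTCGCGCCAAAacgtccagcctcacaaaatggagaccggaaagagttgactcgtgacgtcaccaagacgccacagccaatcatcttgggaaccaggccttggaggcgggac
Mcm2: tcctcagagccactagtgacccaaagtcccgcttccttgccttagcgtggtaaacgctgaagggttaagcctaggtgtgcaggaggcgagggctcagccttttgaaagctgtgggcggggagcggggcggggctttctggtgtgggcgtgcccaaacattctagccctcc
Gins3: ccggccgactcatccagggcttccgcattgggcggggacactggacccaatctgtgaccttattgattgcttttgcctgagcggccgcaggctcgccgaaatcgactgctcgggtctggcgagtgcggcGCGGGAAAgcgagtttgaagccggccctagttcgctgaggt
Rfc3: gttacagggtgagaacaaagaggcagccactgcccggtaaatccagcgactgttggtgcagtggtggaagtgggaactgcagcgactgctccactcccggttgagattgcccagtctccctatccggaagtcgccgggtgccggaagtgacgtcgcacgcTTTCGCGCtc
Dtl: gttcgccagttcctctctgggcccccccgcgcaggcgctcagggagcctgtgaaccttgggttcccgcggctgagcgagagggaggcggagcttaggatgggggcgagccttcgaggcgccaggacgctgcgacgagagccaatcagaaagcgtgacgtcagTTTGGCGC

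In Mcm6 (chr1:128359706-128359875, minus strand) the 3 matches began 110, 106 and 47 bases before the start, the first 2 overlapping on opposite strands. In Mcm5 (chr8:75109339-75109467, plus strand) 2 overlapping matches began 153 and 149 bases before the transcript start of the window. The printed Mcm5 stretch ends 42 bases before that start. The single matches printed for Gins3 (chr8:95633389-95633558, plus strand), Rfc3 (chr5:151651209-151651378, minus strand) and Dtl (chr1:191575545-191575714, minus strand) began 41, 10 and 8 bases upstream. The Rfc3 window held another match, to TTTCCCGC, beginning at the transcript start and so past the printed stretch. The Mcm2 stretch is chr6:88898781-88898950, minus strand.

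At 0 h, before hormone, 20 of the 49 members were lower at an adjusted p under 0.05 and 0 were higher, where 3.18% of all genes were lower and 6.2% were higher. At 4 h, 34 were lower and 0 higher, where the shares of all genes were 4.32% and 5.29%. Their median difference (plus-titled minus no-titled) was -0.42 at 0 h and -0.62 at 4 h, beside medians of -0.02 and -0.01 over all genes. At least 1.5-fold lower were 9 members at 0 h and 25 at 4 h, against 1.65% and 2.37% of all genes, and 0 members were 2-fold lower at either time.

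The arm differences at the 2 times were taken between different arrays, with 1 spread estimated over all 8. Both lists of calls held 18 members (2.06% of all genes were lower at both). That is 90.0% of the members' 0 h calls and 52.9% of their 4 h calls, beside 64.7% and 47.6% over all genes. Gins2 and Gins3 were called at 0 h alone, 16 members at 4 h alone and 13 at neither time, but no member's arm difference was shown to differ between times. The 2 plus-titled arrays both lay below the 2 no-titled arrays for 43 members at 0 h (24.9% of all genes) and 47 at 4 h (27.2%), and at both times for 42 (12.9%). Averaged over the 2 times, a contrast added after the data were seen, 41 members were lower and 0 higher, where 7.74% of all genes were lower and 11.0% higher.

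The count at each single time leaned on particular arrays. At 0 h it was 2 without replicate 1 of the untreated no-titled group, 4 without its replicate 2 and 7 without replicate 2 of the untreated plus-titled group, when 0.883%, 1.05% and 1.89% of all genes were lower. At 4 h it was 14 without replicate 1 of the treated no-titled group, 19 without its replicate 2 and 14 when replicate 2 of the treated plus-titled arrays was left out (1.48%, 1.79% and 1.56% of all genes). Mcm7 and Rfc5 were called at 0 h in each of the 8 fits that left out 1 array. At 4 h Mcm2, Mcm4, Mcm6, Mcm7, Cdt1, Rfc3, Pold1, Pole, Ung, Rrm2, Tk1, Chaf1b and Dtl were, and every other single-time call was lost in at least 1 fit. The averaged contrast gave 34 to 41 calls (5.26% to 7.84% of all genes), with 32 members called in all 8.

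**Figure D1:**
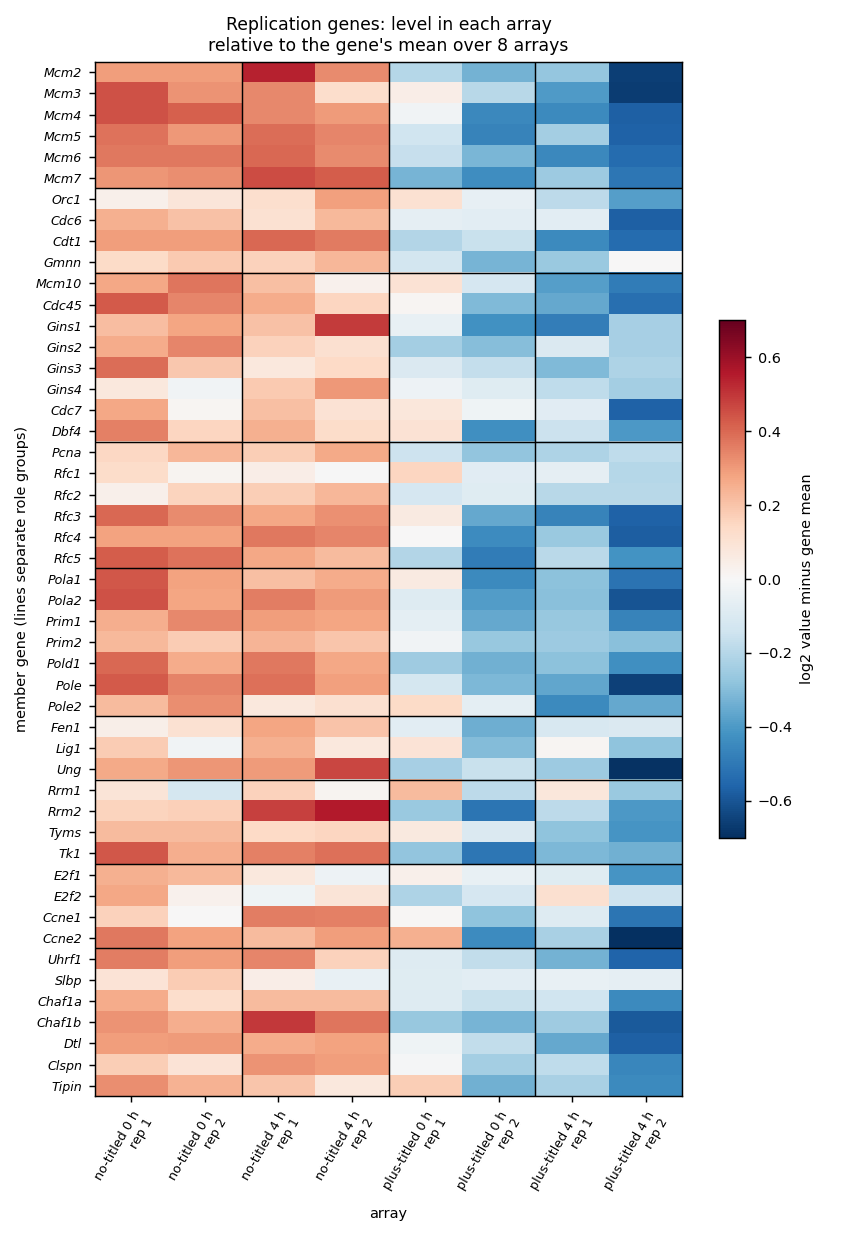
Heat map of the log2 signal of the 49 members (rows, by role group) on the 8 arrays (columns, by group and replicate), each value minus that gene's mean over the arrays; red is above and blue below the mean. The 4 no-titled columns are mostly red and the 4 plus-titled columns mostly blue, with Rrm1, Rfc1, Slbp and E2f2 showing little contrast.

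Within each plus-titled group the 2 arrays were not alike. In replicate 2, 44 of the 49 members were lower than in replicate 1 at 0 h and 42 at 4 h, by medians of -0.20 and -0.22, whereas 45.6% and 53.6% of all genes were lower. In the no-titled groups 30 members were lower in replicate 2 at each time, by medians of -0.05 and -0.04. The members' median level, relative to each gene's mean, was 0.27 and 0.26 in the untreated and 0.26 and 0.26 in the treated no-titled arrays. It was -0.06 and -0.30 in the untreated and -0.25 and -0.45 in the treated plus-titled arrays. All 4 no-titled arrays thus stood above all 4 plus-titled arrays, and the lowest array of each time was replicate 2 of the plus-titled group. What set those replicates apart was not tested.

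The MCM2 to MCM7 proteins form the ring that unwinds DNA at the fork. Their 6 genes were lower in the plus-titled arm at 4 h without exception, and 5 of 6 were at 0 h, with medians of -0.63 at 0 h and -0.82 at 4 h. Mcm7 signals were 9.73 and 9.75 in the untreated and 9.88 and 9.85 in the treated no-titled arrays, against 9.10 and 8.99 in the untreated and 9.17 and 8.92 in the treated plus-titled arrays. The arms did not overlap, and the difference was -0.69 ± 0.12 (SE) at 0 h (1.62-fold lower, adjusted p = 0.005) and -0.82 ± 0.12 at 4 h (adjusted p = 0.00198). Mcm6 stood at 10.16 on both untreated no-titled arrays and at 10.19 and 10.12 after dexamethasone, but at 9.63 and 9.47, then 9.34 and 9.25, in the plus-titled arm. Its difference was -0.61 ± 0.11 at 0 h (adjusted p = 0.00687) and -0.86 ± 0.11 at 4 h (1.81-fold lower, adjusted p = 0.0012).

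Mcm2 signals were 9.52 and 9.52 untreated and 9.77 and 9.56 treated in the no-titled arm, and 9.03 and 8.90 untreated and 8.96 and 8.57 treated in the plus-titled arm. The difference of -0.90 ± 0.14 at 4 h (1.87-fold lower, adjusted p = 0.00336) was the lowest value of any member at that time, and at 0 h it was -0.55 ± 0.14 (adjusted p = 0.0355). Mcm4 was at 9.68 and 9.65 untreated and 9.57 and 9.53 treated in the no-titled arm, beside 9.21 and 8.78, then 8.79 and 8.66, in the plus-titled arm. The untreated plus-titled arrays of Mcm4 lay apart from each other but below both no-titled ones. Its 0 h difference was -0.67 ± 0.14 (adjusted p = 0.0147), and at 4 h it was -0.82 ± 0.14 (adjusted p = 0.00506). Mcm5, whose promoter sequence is printed above, differed by -0.64 ± 0.14 at 0 h (adjusted p = 0.0196) and -0.77 ± 0.14 at 4 h (adjusted p = 0.00773). Mcm3 was the ring gene that did not pass at 0 h, at -0.45 ± 0.14 (adjusted p = 0.0688), although its arrays did not overlap (9.46 and 9.33 against 9.06 and 8.82). At 4 h Mcm3 stood at 9.35 and 9.14 against 8.62 and 8.35, a difference of -0.76 ± 0.14 (adjusted p = 0.0069).

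**Figure D2:**
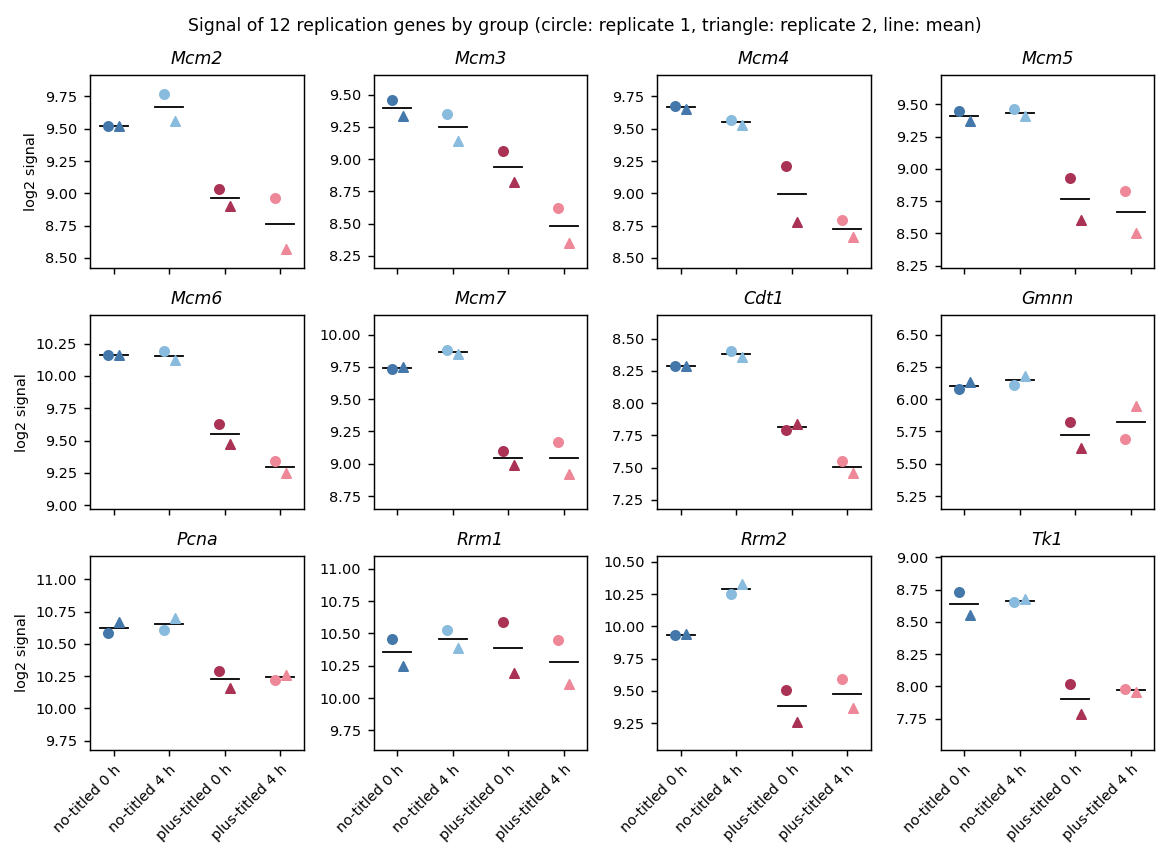
Log2 signal of 12 members (y axis) in the 4 groups (x axis), with circles for replicate 1, triangles for replicate 2 and a line at each group mean; all panels span the same height in log2 units. For the 6 MCM genes, Cdt1, Pcna, Rrm2 and Tk1 every plus-titled point lies below every no-titled point, whereas the Rrm1 points of both arms mix.

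Among the 4 licensing genes, Cdt1 was lower at both times, Orc1 at 4 h alone, and Cdc6 and Gmnn passed at neither time. CDT1 and CDC6 bring the MCM ring to ORC, whose largest subunit is ORC1, and geminin (Gmnn) binds and inhibits CDT1 once S phase has begun. Cdt1 signals were 8.29 and 8.29 untreated and 8.40 and 8.36 treated in the no-titled arm, and 7.79 and 7.84 untreated and 7.55 and 7.46 treated in the plus-titled arm. With replicates this close, the difference was -0.48 ± 0.10 at 0 h (adjusted p = 0.0168) and -0.88 ± 0.10 at 4 h (1.84-fold lower), and that 4 h adjusted p of 0.000771 was the smallest of any member in the 2 single-time arm differences.

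Orc1 had signals near the array medians, which ran from 5.59 to 5.69. At 0 h its arrays overlapped, at 5.60 and 5.65 in the no-titled and 5.67 and 5.51 in the plus-titled arm, and the value was -0.04 ± 0.12 (adjusted p = 0.893). At 4 h they were at 5.68 and 5.85 against 5.38 and 5.18, a difference of -0.48 ± 0.12 (adjusted p = 0.0293). Cdc6 differed by -0.29 ± 0.15 and -0.49 ± 0.15 (adjusted p = 0.289 and 0.0685). Gmnn, whose mean signal of 5.95 was also near the array medians, differed by -0.39 ± 0.12 and -0.32 ± 0.12 (adjusted p = 0.0834 and 0.151). The inhibitor of licensing thus had negative values at both times without passing at either. In the averaged contrast Cdc6 and Gmnn were called lower (adjusted p = 0.0252 and 0.0168), and Orc1 did not pass (adjusted p = 0.0565). The Cdc6 call was lost in most of the fits that left out 1 array, and the Gmnn call in some.

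Of the 8 genes that switch the helicase on, 3 were lower at 0 h (Cdc45, Gins2 and Gins3) and 4 at 4 h (Mcm10, Cdc45, Gins1 and Gins4). Their medians were -0.42 and -0.48. The 0 h call of Gins3 was lost in every fit that left out 1 array. CDC45 and the 4 GINS subunits join the MCM ring to form the active helicase, and Cdc45 was lower in the plus-titled arm at both times. They were 8.41 and 8.32 untreated and 8.24 and 8.13 treated in the no-titled arm, and 7.99 and 7.67, then 7.62 and 7.45, in the plus-titled arm. The differences were -0.54 ± 0.13 (adjusted p = 0.0291) and -0.65 ± 0.13 (adjusted p = 0.0111).

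The GINS genes, whose products work as a single complex, differed in their calls. Gins2 was at 7.77 and 7.85 in the untreated no-titled arrays against 7.27 and 7.21, a difference of -0.57 ± 0.11 (adjusted p = 0.00843). At 4 h it was at 7.67 and 7.62 against 7.41 and 7.28, or -0.30 ± 0.11, which did not pass (adjusted p = 0.117). Gins4 differed by -0.09 ± 0.11 at 0 h (7.60 and 7.50 against 7.49 and 7.44, adjusted p = 0.699) and -0.45 ± 0.11 at 4 h (7.71 and 7.83 against 7.35 and 7.29, adjusted p = 0.0247). The change in arm difference between times is the difference of the dexamethasone responses taken up below, and it passed for neither gene (0.27, adjusted p = 0.997, for Gins2 and -0.36, adjusted p = 0.961, for Gins4). Mcm10, which helps the activated helicase open the origin, differed by -0.33 ± 0.12 (adjusted p = 0.128) and -0.56 ± 0.12 (adjusted p = 0.0155). Cdc7, the kinase, differed by -0.11 ± 0.16 and -0.48 ± 0.16 and did not pass at either time (adjusted p = 0.756 and 0.0933).

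The sliding clamp and 4 of the 5 clamp-loader genes were lower in the plus-titled arm at 4 h, and Pcna, Rfc3 and Rfc5 at 0 h. The 0 h call of Pcna was lost in every fit that left out 1 array, and that of Rfc3 in most. The 4 h calls of Pcna and Rfc2 were also lost in most of these fits. PCNA tethers polymerases to the template, and replication factor C, with subunits RFC1 to RFC5, places it there. Pcna signals were 10.58 and 10.67, then 10.61 and 10.70, in the no-titled arm and 10.29 and 10.16, then 10.22 and 10.26, in the plus-titled arm. The difference was nearly the same at both times, -0.40 ± 0.11 and -0.41 ± 0.11 (1.32-fold and 1.33-fold lower, adjusted p = 0.0412 and 0.0376), and the second Pcna probe set gave -0.41 at each.

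Rfc5 had the lowest 0 h difference of all members. Its signals were 8.73 and 8.69 untreated and 8.58 and 8.53 treated in the no-titled arm, and 8.10 and 7.82, then 8.12 and 7.89, in the plus-titled arm. The difference was -0.75 ± 0.13 at 0 h (1.68-fold lower, adjusted p = 0.00542) and -0.55 ± 0.13 at 4 h (adjusted p = 0.0222). Rfc1, the large subunit, passed at neither time, at -0.04 ± 0.12 and -0.16 ± 0.12 (adjusted p = 0.874 and 0.499). Its untreated arrays overlapped, at 8.56 and 8.45 in the no-titled and 8.58 and 8.35 in the plus-titled arm. The 95% intervals for Rfc1 ran from -0.31 to 0.22 at 0 h and from -0.42 to 0.10 at 4 h, so they included a modest decrease as well as no change. The difference between Rfc1 and the small subunits was not tested.

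All 7 polymerase and primase genes were lower in the plus-titled arm at 4 h and 4 at 0 h, with medians of -0.55 and -0.65. Pold1 encodes the catalytic subunit of polymerase delta, which makes the lagging strand, and Pole that of polymerase epsilon, which makes the leading strand. Pold1 signals were 7.96 and 7.82 untreated and 7.93 and 7.83 treated in the no-titled arm, against 7.31 and 7.22, then 7.27 and 7.13, in the plus-titled arm. The difference was -0.62 ± 0.11 (adjusted p = 0.00737) and -0.68 ± 0.11 (adjusted p = 0.00447). Pole was at 8.39 and 8.31, then 8.35 and 8.25, in the no-titled arm and 7.84 and 7.65, then 7.60 and 7.31, in the plus-titled arm. It differed by -0.60 ± 0.13 (adjusted p = 0.016) and -0.84 ± 0.13 (1.79-fold lower, adjusted p = 0.0029). Pole2, an accessory subunit of polymerase epsilon, differed by -0.24 ± 0.11 at 0 h (adjusted p = 0.246) and -0.50 ± 0.11 at 4 h (adjusted p = 0.02). The other 4 genes, for polymerase alpha and primase, lay between -0.60 and -0.35 at 0 h and between -0.78 and -0.49 at 4 h.

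Of the 3 genes of strand maturation and uracil repair, Ung was lower at 4 h and none passed at 0 h. UNG removes uracil from DNA, FEN1 trims the flaps of Okazaki fragments and LIG1 seals them. Ung signals were 7.36 and 7.40, then 7.39 and 7.56, in the no-titled arm and 6.86 and 6.94, then 6.84 and 6.40, in the plus-titled arm. The difference was -0.48 ± 0.14 at 0 h (adjusted p = 0.0668) and -0.85 ± 0.14 at 4 h (1.80-fold lower, adjusted p = 0.00491). Fen1 differed by -0.28 ± 0.12 and -0.34 ± 0.12 (adjusted p = 0.185 and 0.107), and Lig1 by -0.18 ± 0.16 and -0.30 ± 0.16 (adjusted p = 0.572 and 0.312). In the averaged contrast Fen1 was called lower (adjusted p = 0.0242) and Lig1 did not pass (adjusted p = 0.188). The Fen1 call was lost in most of the fits that left out 1 array.

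The 4 genes of deoxynucleotide synthesis were split. Ribonucleotide reductase, which turns ribonucleotides into deoxynucleotides, is built from a large subunit (Rrm1) and a small subunit (Rrm2) whose level is known to follow S phase. Rrm2 was at 9.93 and 9.94 untreated and 10.25 and 10.33 treated in the no-titled arm, and at 9.51 and 9.26, then 9.59 and 9.37, in the plus-titled arm. It was lower in the plus-titled arm, at -0.55 ± 0.12 at 0 h (adjusted p = 0.0207) and -0.81 ± 0.12 at 4 h (1.75-fold lower, adjusted p = 0.00301). Rrm1 signals mixed between the arms, at 10.46 and 10.25, then 10.53 and 10.39, in the no-titled and 10.59 and 10.19, then 10.45 and 10.11, in the plus-titled arm. Rrm1 differed by 0.03 ± 0.16 (95% interval -0.32 to 0.39, adjusted p = 0.931) and -0.18 ± 0.16 (95% interval -0.54 to 0.18, adjusted p = 0.596). It was the 1 member whose value at 0 h was above 0, and the difference between Rrm1 and Rrm2 was not tested.

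Thymidine kinase (Tk1), which salvages thymidine, was at 8.73 and 8.55, then 8.65 and 8.68, in the no-titled arm and 8.02 and 7.79, then 7.98 and 7.96, in the plus-titled arm. Its difference of -0.74 ± 0.12 at 0 h (1.67-fold lower) had the smallest adjusted p of the members at that time, 0.00412, and at 4 h it was -0.70 ± 0.12 (adjusted p = 0.00493). The second Tk1 probe set gave -0.59 and -0.91. Thymidylate synthase (Tyms), which makes thymidylate from deoxyuridylate, differed by -0.24 ± 0.11 at 0 h (8.12 and 8.12 against 7.97 and 7.80, adjusted p = 0.224). At 4 h Tyms was at 8.04 and 8.05 against 7.62 and 7.49, lower, at -0.49 ± 0.11 (adjusted p = 0.0189).

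**Figure D3:**
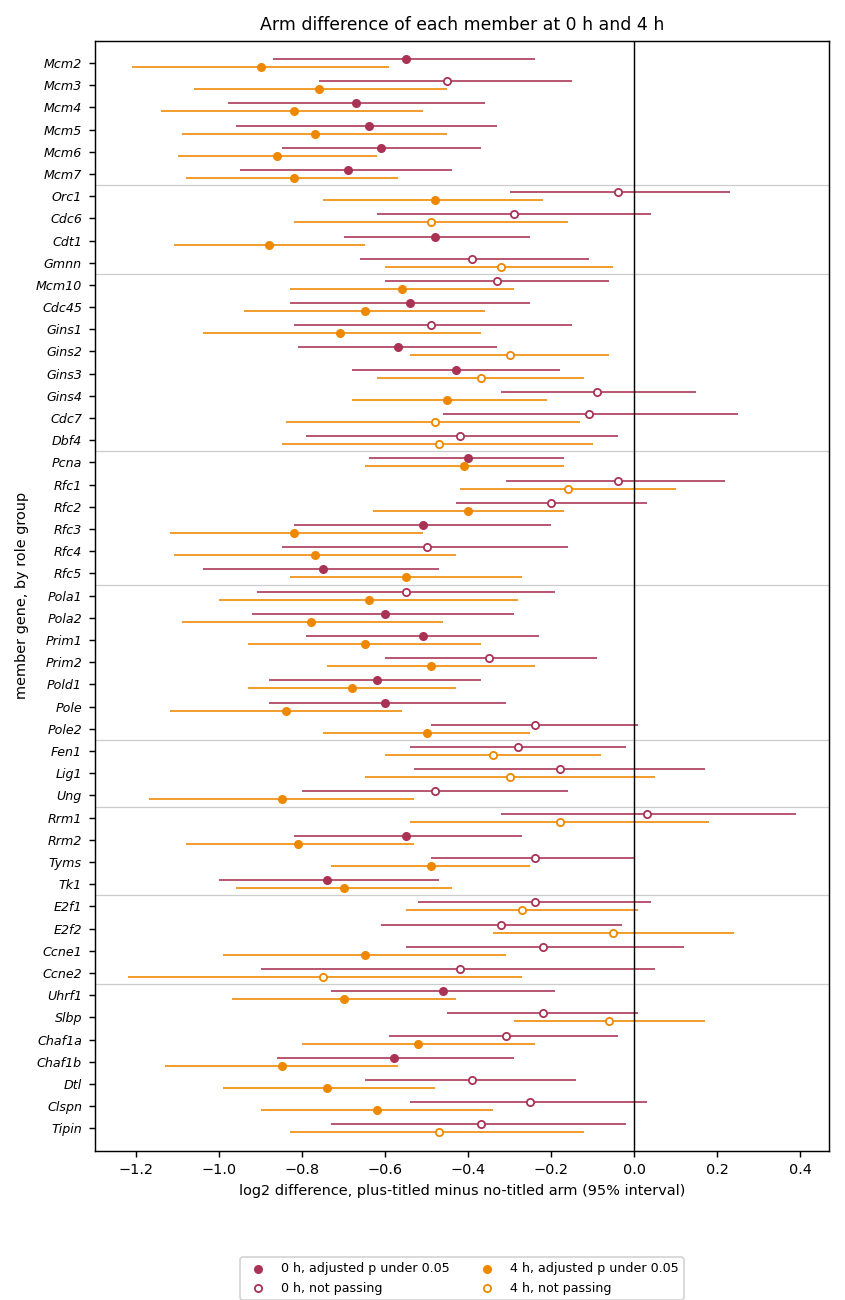
Difference between the arms for each member (rows, by role group) in log2 units, plus-titled minus no-titled, at 0 h (purple) and 4 h (orange); bars are 95% intervals and filled points passed at an adjusted p under 0.05. Points lie left of 0 for 48 members at 0 h and for all 49 at 4 h, from -0.75 to 0.03 and from -0.90 to -0.05.

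Few of the regulators on the list passed the test at a single time. E2F1 and E2F2 activate replication genes, and cyclins E1 and E2 drive the kinase CDK2 at the start of S phase. Of these 4 genes, 0 passed at 0 h and Ccne1 alone at 4 h, and whether they differed from the other members was not tested. E2f1 signals were 8.07 and 8.05, then 7.90 and 7.79, in the no-titled arm and 7.86 and 7.77, then 7.74 and 7.41, in the plus-titled arm, giving -0.24 ± 0.13 and -0.27 ± 0.13 (adjusted p = 0.295 and 0.24). E2f2, whose mean signal of 5.91 was near the array medians, differed by -0.32 ± 0.13 and -0.05 ± 0.13 (adjusted p = 0.167 and 0.881). Ccne1 differed by -0.22 ± 0.15 at 0 h (adjusted p = 0.461), and at 4 h it was at 7.88 and 7.87 against 7.43 and 7.01 (-0.65 ± 0.15, adjusted p = 0.0227). Ccne2 differed by -0.42 ± 0.21 and -0.75 ± 0.21 (adjusted p = 0.277 and 0.0532), with plus-titled replicates far apart at 7.27 and 6.58 untreated and at 6.79 and 6.27 treated. In the averaged contrast Ccne1 and Ccne2 were called lower, whereas E2f1 and E2f2 did not pass. Both of these calls were lost in some fits that left out 1 array.

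Of the 7 genes for chromatin assembly, histone mRNA and the fork checkpoint, Uhrf1 and Chaf1b were lower at 0 h, and these with Chaf1a, Dtl and Clspn at 4 h. CHAF1B is a subunit of the factor that deposits histones behind the fork, and UHRF1 brings the maintenance DNA methyltransferase to newly copied DNA. Chaf1b signals were 8.26 and 8.20, then 8.44 and 8.32, in the no-titled arm and 7.68 and 7.62, then 7.70 and 7.36, in the plus-titled arm. The difference was -0.58 ± 0.13 (adjusted p = 0.0192) and -0.85 ± 0.13 (1.80-fold lower, adjusted p = 0.00282). Uhrf1 differed by -0.46 ± 0.12 (adjusted p = 0.0379) and -0.70 ± 0.12 (adjusted p = 0.00516). Claspin (Clspn), an adaptor of the checkpoint kinase CHK1, differed by -0.25 ± 0.13 (adjusted p = 0.277) and -0.62 ± 0.13 (adjusted p = 0.0126). Slbp, whose product binds the stem-loop of histone mRNAs, differed by -0.22 ± 0.10 and -0.06 ± 0.10 (adjusted p = 0.249 and 0.825), beside 0.00 and -0.17 from its second probe set.

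An E2F-type match in the RefSeq windows was held by 7 of the 16 members with a window that were lower at both times, by 6 of 12 lower at 4 h alone, by 1 of 1 at 0 h alone and by 3 of 10 called at neither time. The 7 were Mcm5, Mcm6, Mcm7, Cdt1, Rfc3, Pold1 and Uhrf1, and the 3 uncalled genes were Cdc6, Lig1 and E2f2. Mcm2, with no match in its window, had the lowest 4 h value. The counts are too small to order the classes, and no test was made.

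Dexamethasone moved no member past the test in either arm. In the no-titled arm 0 of 49 members were called by limma after 4 h, under each alternative too, where 1.43% of all genes were, and 1 had an unadjusted p under 0.05 (9.1% of all genes). The members' median response was -0.01, with 26 below 0 and 23 above. The 1 was Rrm2, which went from 9.93 and 9.94 to 10.25 and 10.33, a value of 0.35 ± 0.12 (adjusted p = 0.334). Gins4 had the next smallest p, at 0.22 ± 0.11 (adjusted p = 0.609). The 2 treated arrays both lay below the untreated ones for 14 members and both above for 12, shares to be read beside 19.4% and 21.1% of all genes.

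In the plus-titled arm 0 of 49 were called, again under each alternative, where 1.1% of all genes were, but more values lay below 0. The median response was -0.17 beside -0.01 over all genes, 40 of 49 (81.6%, against 51.6% of all genes) were below 0, and 13 had an unadjusted p under 0.05, against 9.98% of all genes. Pole2 went from 7.17 and 6.97 to 6.59 and 6.68, a value of -0.44 ± 0.11 with the smallest p (adjusted p = 0.142). Mcm10 went from 7.23 and 7.01 to 6.74 and 6.64 (-0.43 ± 0.12, adjusted p = 0.185), and Mcm3 from 9.06 and 8.82 to 8.62 and 8.35 (-0.46 ± 0.14, adjusted p = 0.223). Treated arrays lay below untreated ones for 19 members and above for 2, beside 19.3% and 16.9% of all genes. This median ran from -0.33 to -0.06 when 1 array was left out, at -0.06 without replicate 1 of the untreated or when replicate 2 of the treated one was left out. It was -0.33 without replicate 1 of the treated and -0.29 without replicate 2 of the untreated plus-titled group.

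**Figure D4:**
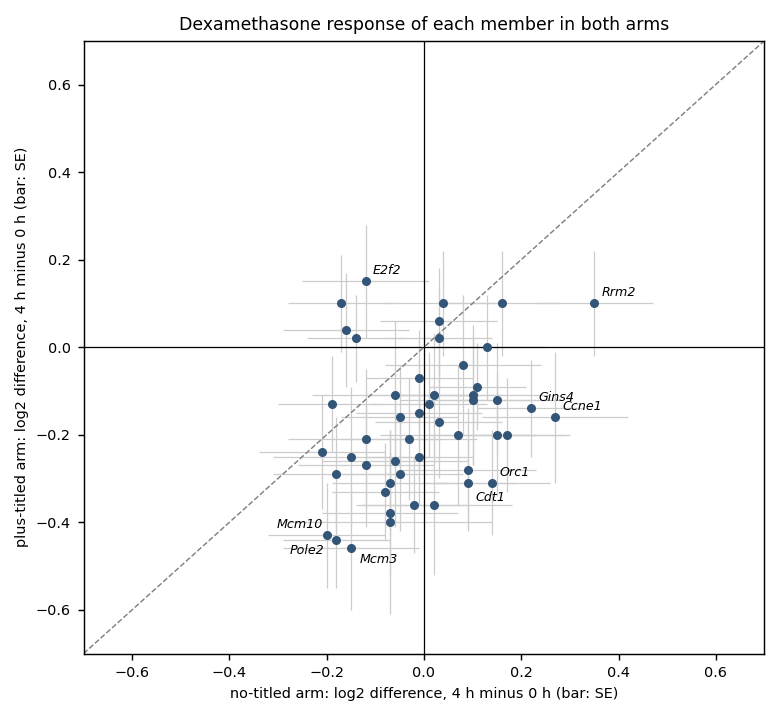
Dexamethasone response of each member in log2 units (4 h minus 0 h) in the no-titled arm (x axis) and the plus-titled arm (y axis), with bars of 1 SE; the dashed line marks equal responses. Most points lie below the dashed line and within 0.5 of 0 on both axes, and none passed the test in either arm.

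The difference of the 2 responses asks whether dexamethasone acted unlike in the 2 arms, and it is also the change of the arm difference between 0 h and 4 h. It was called for 0 of 49 members, where 0.00502% of all genes were, and 3 had an unadjusted p under 0.05 (5.11% of all genes). The members' median was -0.20 beside -0.01 over all genes, and 42 of 49 were below 0 (85.7%, against 53.3% of all genes). Cdt1, whose untreated and treated values are given above, had the smallest p, at -0.40 ± 0.15 (adjusted p = 0.902). Orc1 was at -0.45 ± 0.17 (adjusted p = 0.915) and Gins4 at -0.36 ± 0.15 (adjusted p = 0.961). Without 1 array the median ran from -0.32 to -0.04. It was -0.04 and -0.32 without replicate 1 and replicate 2 of the untreated plus-titled group, and -0.07 when replicate 2 of the treated plus-titled arrays was left out. Treated arrays above untreated ones in 1 arm and below them in the other were seen for 6 members, beside 4.57% of all genes. The change of the arm difference between the times was thus tested for each member and passed for none. The larger count of calls at 4 h than at 0 h was not itself tested.

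Other genes of the pathway, from lists that leave the members out, had medians below 0 at both times. These lists too were chosen with earlier results of these data known. Their counts are to be read beside 3.18% of all genes lower and 6.2% higher at 0 h. At 4 h the shares were 4.32% and 5.29%. Of 38 further replication fork and S phase genes, 6 were lower and 0 higher at 0 h (median -0.34), and 23 were lower and 1 higher at 4 h (median -0.51). Cdca7, which with the helicase HELLS remodels chromatin, was lower, at -1.01 ± 0.11 at 0 h (adjusted p = 0.000761), Hells at -0.78 ± 0.19 (adjusted p = 0.0316) and Pold2, a subunit of polymerase delta, at -0.56 ± 0.12 (adjusted p = 0.0185). Of 26 further nucleotide synthesis genes, 9 were lower and 1 higher at 0 h and 13 lower and 0 higher at 4 h, with medians of -0.33 and -0.45. The mitochondrial folate enzymes Mthfd2 and Shmt2 were lower, at -1.11 ± 0.11 and -1.04 ± 0.11 at 0 h (adjusted p = 0.000419 and 0.000511), and the purine synthesis gene Gart at -0.74 ± 0.11 (adjusted p = 0.00258). Such folate enzymes supply carbon units for purines and thymidylate.

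Genes of E2F, RB and CDK control went both ways. Of 22, 4 were lower and 2 higher at 0 h and 4 were lower and 4 higher at 4 h. Over all genes, 3.18% were lower and 6.2% higher at 0 h, and 4.32% were lower and 5.29% higher at 4 h. The cyclin D3 gene Ccnd3 was higher by 0.62 ± 0.10 (adjusted p = 0.00449), and the retinoblastoma gene Rb1 by 0.48 ± 0.12 (adjusted p = 0.0306) and by 0.75 ± 0.12 at 4 h (adjusted p = 0.00349). Mybl2, itself a known E2F target, and the RB relative Rbl1 were lower at 0 h, at -0.60 ± 0.14 (adjusted p = 0.025) and -0.54 ± 0.15 (adjusted p = 0.0488). Of 19 mitosis genes, 10 were lower at 0 h and 7 at 4 h, with 0 higher at either time and medians of -0.46 and -0.47, and Mki67, Cenpf and Cdc20 were lower at 0 h, at -0.65, -0.63 and -0.57. Their median difference of the dexamethasone responses was 0.01, beside -0.20 for the members. For the further fork and S phase, nucleotide synthesis and control genes it was -0.15, -0.11 and -0.08.

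**Figure D5:**
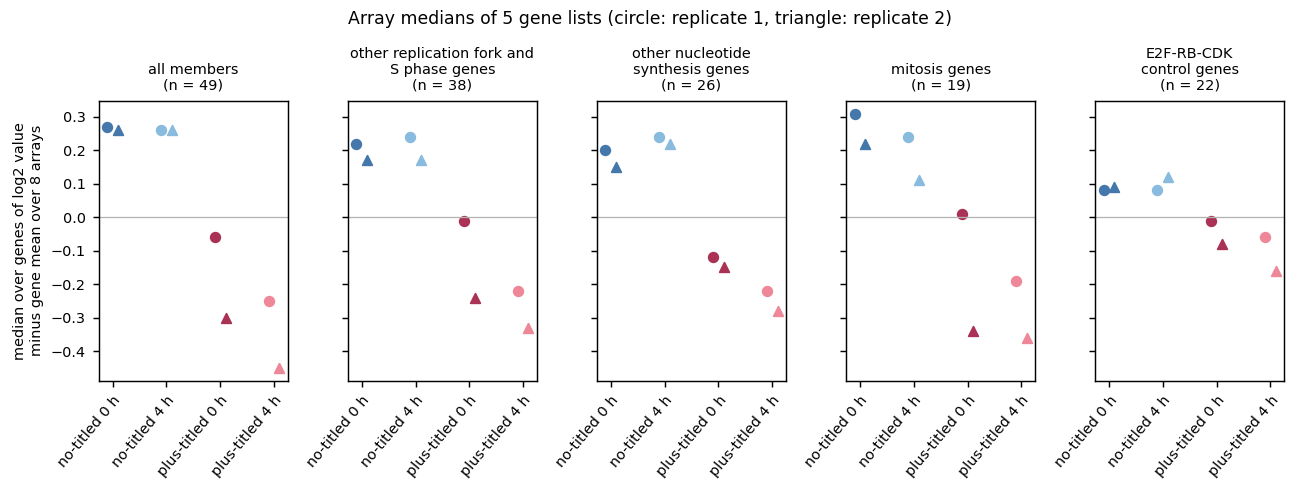
Median over the genes of a list of each gene's log2 signal minus its mean over the 8 arrays (y axis), for the members and the 4 further lists (panels), by group (x axis), with a circle for replicate 1 and a triangle for replicate 2. In every panel the 4 no-titled points lie above the 4 plus-titled points, with narrow gaps for the mitosis genes and the E2F, RB and CDK control genes.

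The labelled mammary origin was set against cell type markers. Of the luminal epithelial genes, Krt18, Krt19, Epcam and Cdh1 had medians over the arrays of 5.04, 4.80, 4.41 and 4.91, below the array medians, and Krt8 and Esr1 were at 5.91 and 5.95. The basal genes Krt5, Krt17 and Trp63 were at 4.91, 4.62 and 5.20, also below the array medians, and Krt14 was at 5.86. The mesenchymal genes Vim, Col1a2, Fn1 and Pdgfrb were at 12.82, 11.79, 11.21 and 8.99, well above the array medians. Col1a1 and Col3a1 were less far above, at 6.88 and 6.62. Ptprc, Pecam1 and Adipoq, defining markers of leukocytes, endothelium and fat cells, were at 4.02, 4.39 and 3.30. Of the 9 measured markers of those 3 cell types, the endothelial gene Cdh5 was above the array medians, at 7.18. At 0 h, 0 of 6 luminal, 1 of 4 basal and 2 of 6 mesenchymal markers were called. These were Krt14 (-1.39), Col1a2 (-0.70) and Pdgfrb (0.52), where 3.18% of all genes were lower and 6.2% higher. Of 9 leukocyte, endothelial and adipocyte markers 0 were called at 0 h. Fabp4 was lower at 4 h, at -1.35, where 4.32% of all genes were lower. The part of the markers in the members' differences was not tested.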

How the data were processed

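The authors deposited log2 expression values for 28888 probe sets on 8 arrays, made with Affymetrix Expression Console and RMA per the submitters' processing notes (version numbers: not given in the sources used here). In RMA, probe signals are brought to a common distribution, which can hide a shift common to most genes, and folds of dim genes are compressed. Probe sets were named through the platform annotation, updated by gene number from a RefSeq table. Of them, 21789 had 1 symbol, 1621 several and 5478 none. The brightest probe set per gene left 19938 genes, with no filter on signal. The number of arrays limits the precision.

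Differences were tested 2-sided with limma 3.58.1 in R 4.3.3 (lmFit, eBayes), in 1 model with a mean for each of the 4 title-named groups, and Benjamini-Hochberg adjustment over all genes. Calls required an adjusted p under 0.05. Residual degrees of freedom were 4, the prior added 6.64 at an SD of 0.127, and the procedure was tested on simulated data. Contrasts were the arm difference at each time, each arm's dexamethasone response and the difference of the responses, with the averaged arm difference added after the data were seen.

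Members, role groups and lists were chosen with earlier results of these data known. Named members were, per role group, the 2 with the smallest and the 1 with the largest p at 0 h, with the MCM genes, main licensing, nucleotide and E2F or cyclin E genes and Pcna in every case, those with the smallest p in the responses and those of extreme mean signal. Others named were chosen after their values were seen. As alternatives, each array was left out in turn, the variance was modelled with an intensity trend, fits used the compared arrays alone or a block for the replicate number, the dimmest 25% of genes were dropped, arrays were median-centred or cyclic loess normalised, and probe sets of a gene were averaged.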

Additional observations from a re-analysis of the deposited data

Results flagged for a closer look

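For 6 members the treated arrays lay above the untreated ones in one arm and below them in the other, against 4.57% of all genes with such opposite responses. The difference of the responses (plus-titled minus no-titled) was tested with limma and passed for none of them. It was -0.45 for Orc1 (responses of 0.14 no-titled and -0.31 plus-titled, adjusted p = 0.915). Cdt1 had -0.40 (0.09 and -0.31, adjusted p = 0.902) and Gins4 had -0.36 (0.22 and -0.14, adjusted p = 0.961). Rfc2 had -0.20 (0.11 and -0.09, adjusted p = 0.997). The opposite order was seen for Gins2, at 0.27 (-0.17 and 0.10), and for Slbp, at 0.16 (-0.14 and 0.02), both with an adjusted p of 0.997. As a share, this is 12.2% of the members.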

How the results depend on the processing

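With 2 arrays per group, the calls depended on single arrays. When each array was left out in turn, between 2 and 20 members were called lower at 0 h, between 14 and 37 at 4 h and between 34 and 41 in the averaged contrast, all of them lower. The members' median ran from -0.49 to -0.30 at 0 h, from -0.73 to -0.49 at 4 h and from -0.58 to -0.41 when averaged. For the plus-titled response it ran from -0.33 to -0.06, and for the difference of the responses from -0.32 to -0.04. No count of calls in the responses left 0 in these 8 fits. In the same fits, values with no call changed sign. At 0 h these ran from -0.12 to 0.04 for Orc1, -0.24 to 0.02 for Cdc7, -0.16 to 0.07 for Rfc1, -0.38 to 0.02 for Lig1 and -0.17 to 0.23 for Rrm1. At 4 h E2f2 ran from -0.18 to 0.08, and averaged over both times Rrm1 ran from -0.17 to 0.03. The cause was not tested.

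The 7 other alternatives gave 15 to 27 calls at 0 h, 32 to 38 at 4 h and 40 to 43 averaged, while 2.16% to 5.35%, 3.85% to 7.05% and 6.69% to 11.8% of all genes were lower. Same-numbered replicates deviated together at correlations between -0.019 and 0.133 over all genes and between 0.11 and 0.435 over the 49 members. With 2 numbers only, and all genes not above 0.1 throughout, they were not taken to pair samples. With the replicate number as a block, 23 members were called at 0 h (3.53% of all genes lower) and 38 at 4 h (4.88%).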
